A study of Mus musculus with 8 samples.

Results

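The matrix metalloproteinases (MMPs), the ADAMTS proteases and the tissue inhibitors of metalloproteinases (TIMPs) were examined in RNA of mouse uterine stromal cells. Members were taken by gene symbol alone, as every Mmp, Adamts and Timp1 to Timp4 symbol followed by its number. This gave 46 of the 23420 symbols in the count tables, of which 23 were MMPs, 19 ADAMTS proteases and 4 TIMPs.

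MMPs and ADAMTS proteases are zinc-dependent endopeptidases that cut the matrix between cells. They are made as inactive precursors, most MMPs are secreted or held at the cell surface, and ADAMTS proteases add thrombospondin repeats that bind matrix. TIMPs block the active site of MMPs, and Timp2 also takes part in the activation of pro-Mmp2 by Mmp14. In the uterus, matrix turnover of this kind accompanies the remodelling of stroma, glands and vessels through the cycle and early pregnancy.

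Libraries were labelled with the genotype Erbb3f/f (4 libraries) or Erbb3d/d (4 libraries), all from uterine stromal cells of females at day 3. The letter f usually stands for a loxP-flanked allele and d for its deleted form. The Cre driver, the age, the event that day 3 counts from and any treatment are not given in the sources used here. Nor is it given whether a library came from 1 animal or a pool or whether replicates came from separate animals, so p-values measure only the spread between these samples.

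Each library held 8578575 to 12854367 reads in genes. Erbb3 itself was not lower under the label Erbb3d/d. It had 7.40, 10.6, 8.25 and 12.3 CPM (read counts scaled to library size) in Erbb3f/f replicates 1 to 4 and 7.37, 14.3, 17.7 and 16.2 CPM in Erbb3d/d replicates 1 to 4 (log2 fold change 0.53, edgeR adjusted p = 0.485). Which exon a deletion would remove is not given, so total reads over the gene may not test it, and groups are called by their labels throughout. Of the marker lists, all 16 stromal genes were detected (13873 to 21476 CPM summed), and so were genes of other cell types. Epithelial markers summed to 1150 to 1776 CPM in the libraries labelled Erbb3f/f and 1674 to 2697 in those labelled Erbb3d/d, and smooth muscle markers to 1885 to 3108 and 2994 to 6271. Erbb3 was highest in Erbb3d/d replicates 3 and 4, where the epithelial markers also summed highest (2583 and 2697 CPM). The part of epithelial RNA in the Erbb3 level was not tested. No listed marker found in the tables was at 0. In bulk RNA of this kind, fewer cells of a type and less RNA per cell cannot be told apart.

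The repertoire was dominated by a few genes. On the scale of CPM per kb of merged exon, which allows genes of different length to be compared, the highest mean levels over the 8 libraries were those of Mmp2 (350), Timp2 (330), Mmp14 (120), Adamts1 (74.5), Mmp11 (65.0), Timp3 (45.3) and Mmp19 (40.7). Mmp2 encodes the constitutive gelatinase of connective tissue and Mmp14 the membrane-type protease that activates it. Across libraries Mmp2 ranged from 302 to 412 and Timp2 from 269 to 444, so the order of these leading genes is not resolved. Mmp14 ranged from 91.2 to 166, below both. Adamts4, an aggrecanase, followed at 25.2, and Mmp23, a membrane-anchored MMP, at 21.6. Of the 46 members, 36 had a mean of at least 1 CPM, and 10 had a mean of at least 100 CPM.

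Of the 46 members, 36 passed the filter on low counts and were tested, namely 16 MMPs, 17 ADAMTS proteases and 3 TIMPs. The other 10 (Mmp1a, Mmp1b, Mmp8, Mmp10, Mmp13, Mmp20, Mmp21, Adamts13, Adamts18 and Timp4) had at most 19 reads in any library. All 4 collagenases of the MMP family, Mmp1a, Mmp1b, Mmp8 and Mmp13, were among them. Mmp1a, Mmp1b and the enamel protease Mmp20 had 0 reads in all 8 libraries, and a count of 0 allows up to 0.236 to 0.350 CPM per library (3 counts), which covers counting error only. Timp4 had 3 reads at most.

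**Figure D1:**
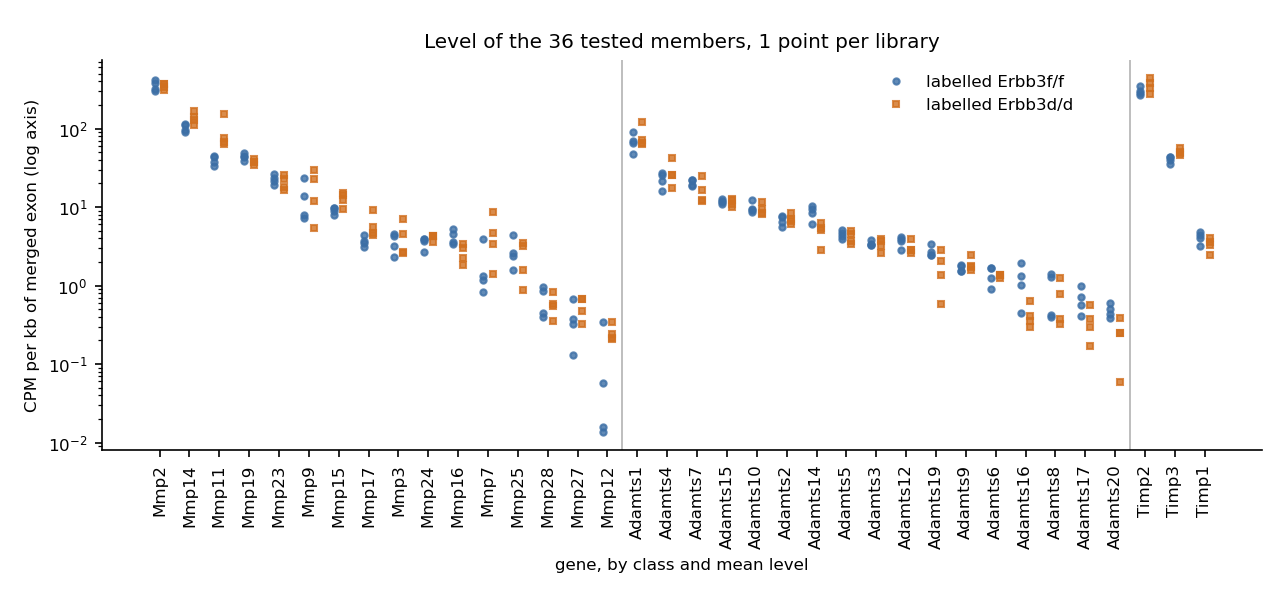
Level of the 36 tested members in CPM per kb of merged exon (vertical log axis), ordered by class and mean level, with 1 point per library (circles Erbb3f/f, squares Erbb3d/d). Mmp2 and Timp2 stand at 350 and 330 on average, and levels run down to 0.18 for Mmp12.

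Of the 10 members under the filter, 6 lie in 1 gene cluster. In the GENCODE vM21 annotation of GRCm38, 10 MMP genes lie within 427 kb on chromosome 9 (7272514 to 7699585), namely Mmp13, Mmp12, Mmp1b, Mmp3, Mmp1a, Mmp10, Mmp8, Mmp27, Mmp20 and Mmp7. Only 4 of these 10 were tested (Mmp3, Mmp7, Mmp12 and Mmp27), and the highest mean among them was 7.01 CPM, for the stromelysin Mmp3. The abundant MMPs lie elsewhere: Mmp2 on chromosome 8 (92827291 to 92853420), Mmp14 on chromosome 14 (54431612 to 54445364), and Mmp11 on chromosome 10 (75923222 to 75936496).

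RefSeq starts on GRCm38.p6 were found for 32 of the 46 members, not for Mmp2 or Mmp19, and 250 bases before each start were searched on both strands for 3 motifs. The first was TGANTCA, the consensus that the factor AP-1 recognises. The second was TATAAA, which marks a TATA box. The third was GGGCGG, known as a GC box, and its copies may overlap each other. The following stretches show the last 130 bases before the start, 5′ to 3′ on the gene's own strand, with motif matches in capitals. They are shown for 4 members of the chromosome 9 cluster, at chr9:7445692-7445821, chr9:7691960-7692089, chr9:7502212-7502341 and chr9:7272384-7272513, all on the plus strand, because both TGANTCA and TATAAA occur in each.
Mmp3: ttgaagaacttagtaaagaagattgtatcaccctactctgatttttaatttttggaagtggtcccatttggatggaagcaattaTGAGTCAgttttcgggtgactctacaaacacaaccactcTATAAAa
Mmp7: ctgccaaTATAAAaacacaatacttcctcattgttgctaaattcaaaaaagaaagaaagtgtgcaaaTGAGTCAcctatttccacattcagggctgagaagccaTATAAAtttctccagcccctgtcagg
Mmp10: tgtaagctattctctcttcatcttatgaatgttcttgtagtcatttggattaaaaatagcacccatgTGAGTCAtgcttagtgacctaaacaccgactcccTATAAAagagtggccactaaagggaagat
Mmp13: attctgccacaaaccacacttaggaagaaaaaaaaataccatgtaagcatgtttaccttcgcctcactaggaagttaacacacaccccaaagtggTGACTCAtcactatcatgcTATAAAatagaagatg

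TGANTCA and TATAAA occurred together in 7 of the 32 member promoters, and in 1.21% of all 32851 RefSeq promoters. The 7 were Mmp1a, Mmp1b, Mmp3, Mmp7, Mmp10, Mmp13 and Mmp20, all from the chromosome 9 cluster, whose genes are tandem relatives that share sequence and are not independent cases. Their median level was 0.117 CPM per kb and their highest 3.89. The other 3 genes of the cluster held none of the 3 motifs and were low too, with levels of 0.272 (Mmp8), 0.18 (Mmp12) and 0.454 (Mmp27). Over all 23 members with neither TGANTCA nor TATAAA the median level was 3.34. TGANTCA alone was in 6.75% of all promoters and TATAAA in 12.4%, against 7 and 9 of the 32 members.

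GGGCGG was found in 16 of the 32 members and in 32.7% of all promoters. Of these 16 members 15 were tested, and their median level was 5.28 CPM per kb, up to 330 for Timp2. A match is a description of letters and not a shown binding site. The stretches for 4 members outside the cluster, Mmp14 at chr14:54431468-54431597 (plus strand), Mmp11 at chr10:75932503-75932632, Adamts1 at chr16:85803114-85803243 and Adamts14 at chr10:61273420-61273549 (all minus strand), show this other layout, in which CCGCCC in capitals is GGGCGG on the other strand.
Mmp14: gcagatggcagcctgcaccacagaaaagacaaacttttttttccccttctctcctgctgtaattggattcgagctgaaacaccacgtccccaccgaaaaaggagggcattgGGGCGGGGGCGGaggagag
Mmp11: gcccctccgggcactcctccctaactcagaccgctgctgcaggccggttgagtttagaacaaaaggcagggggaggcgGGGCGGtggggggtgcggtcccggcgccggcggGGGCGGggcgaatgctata
Adamts1: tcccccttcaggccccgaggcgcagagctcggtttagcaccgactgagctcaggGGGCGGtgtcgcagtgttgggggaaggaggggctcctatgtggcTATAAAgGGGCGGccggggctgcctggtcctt
Adamts14: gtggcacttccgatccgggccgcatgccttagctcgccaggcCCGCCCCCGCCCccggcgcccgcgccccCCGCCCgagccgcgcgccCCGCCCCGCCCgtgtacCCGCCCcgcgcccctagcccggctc
Adamts1 also held a TATAAA that begins 32 bases before the start, and the other 3 held none in the 250 bases searched.

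The main comparison asked which members differed between the libraries labelled Erbb3d/d and those labelled Erbb3f/f. With edgeR over 14598 genes, adjusted p-values stayed above 0.05 for every member and every other gene (0.0% in either direction, smallest adjusted p 0.109). At an unadjusted p under 0.05 edgeR gave 12 of the 36 tested members (33.3%), against 1695 genes, or 11.6%, of all tested. Of the 12, 6 had higher values under Erbb3d/d (Mmp7, Mmp11, Mmp14, Mmp15, Mmp17 and Timp3), where 6.64% of all genes were higher, and 6 were lower (Mmp16, Mmp19, Adamts14, Adamts16, Adamts17 and Adamts20), where 4.97% of all genes were lower. DESeq2 called 2 members at an adjusted p under 0.05, Mmp11 higher (log2 fold change 1.19, adjusted p = 0.00165) and Adamts16 lower (-1.46, adjusted p = 0.0448), among 1.78% of the 15210 genes it tested (1.39% higher and 0.381% lower). The 12 members kept their direction in all 15 alternative settings. These settings refit the same libraries that selected the 12, so a kept direction adds no separate support. With the mean of the epithelial markers as a covariate, only Mmp11, Mmp17 and Adamts14 of the 12 stayed at an unadjusted edgeR p under 0.05. With the smooth muscle markers, Mmp11, Mmp15, Mmp16, Adamts14 and Adamts16 did.

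The libraries of the 2 labels did not overlap in 3 members, Mmp11 and Timp3 (higher) and Mmp16 (lower). Over all tested genes 5.04% had no overlap, 2.56% higher and 2.48% lower. Of the tested MMPs 10 of 16 had a log2 fold change above 0 (median 0.33), of the ADAMTS proteases 4 of 17 (median -0.12) and of the TIMPs 2 of 3 (median 0.26). Over all genes 48.0% were above 0, with a median of -0.01. Beyond the overlaps given with Mmp11, Mmp19 and Timp3, the tested members Mmp7, Mmp12, Mmp24, Mmp28, Adamts4, Adamts7, Adamts8 and Adamts9 share 122 to 1805 exonic bases with a gene on the other strand, and reads there are uncertain in the same way.

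**Figure D2:**
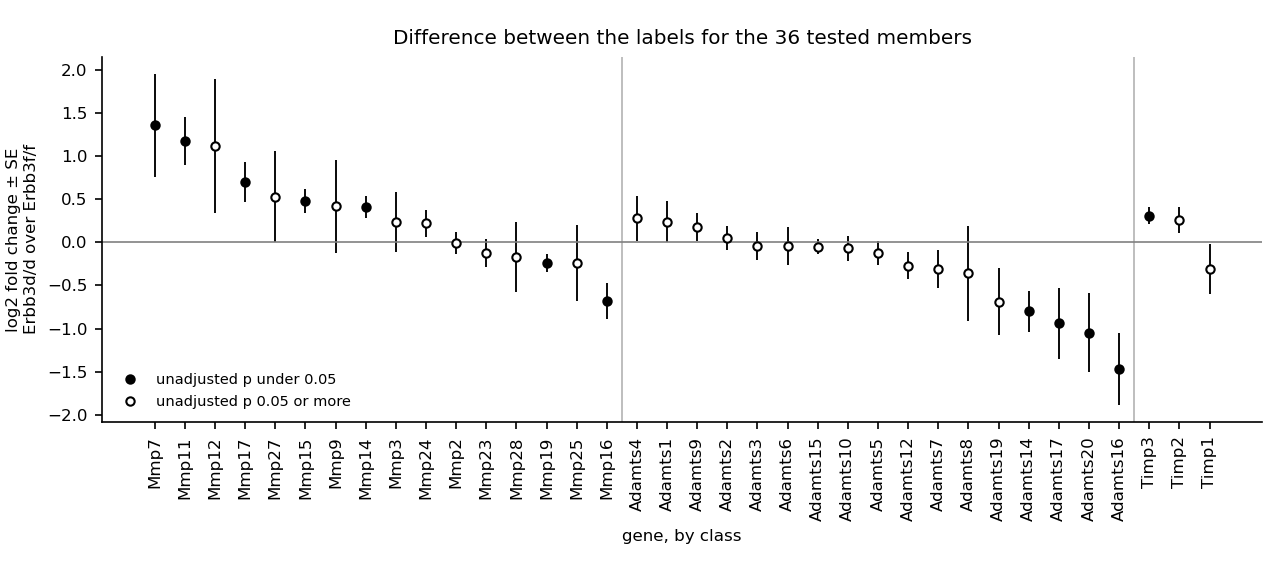
Log2 fold change of the 36 tested members, Erbb3d/d libraries relative to Erbb3f/f libraries, with bars of 1 SE, ordered within MMP, ADAMTS and TIMP. Filled points have an unadjusted p under 0.05 in edgeR, and they run from 1.36 for Mmp7 to -1.47 for Adamts16, with none past the adjusted threshold.

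Among the inhibitors, Timp3 was the member whose libraries did not overlap. Timp3 encodes the TIMP that stays bound to matrix and also inhibits ADAM and ADAMTS proteases. Its values were 326, 354, 350 and 286 CPM in Erbb3f/f replicates 1 to 4 and 405, 375, 394 and 462 CPM in Erbb3d/d replicates 1 to 4. All 4 libraries labelled Erbb3d/d lay above all 4 labelled Erbb3f/f, by a log2 fold change of 0.31 (SE 0.10), with an edgeR adjusted p of 0.314. The exact permutation p was 0.0286, the smallest that 70 assignments can give. Any gene without overlap gets this value, so here and for Mmp16 and Mmp11 below it restates the separation and is no second test. The other members at an unadjusted edgeR p under 0.05 had exact permutation p-values from 0.0571 (as for Mmp14) to 0.114 (Mmp7). Timp3 shares 1733 exonic bases with Syn3 on the other strand. Libraries were non-directional, so reads from the 2 genes cannot be told apart there, but Syn3 was at 6.82 ± 0.528 CPM under Erbb3f/f and 8.07 ± 1.91 CPM under Erbb3d/d (SD, n = 4), far below Timp3.

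Timp2, the leading inhibitor, had 1096, 1049, 1359 and 1174 CPM in Erbb3f/f replicates 1 to 4 and 1495, 1080, 1296 and 1729 CPM in Erbb3d/d replicates 1 to 4. The labels overlapped (log2 fold change 0.26, SE 0.15, edgeR adjusted p = 0.534), and the log2 fold change was 0.15 without Erbb3d/d replicate 4. Timp1, an inducible TIMP of many tissues, was low in this material. Its values were 3.90, 2.83, 3.54 and 4.30 CPM, and 3.54, 3.15, 2.21 and 2.90 CPM, with a log2 fold change of -0.31 (SE 0.29, edgeR adjusted p = 0.722) that was -0.19 without Erbb3d/d replicate 3.

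Among the gelatinases, Mmp2 showed no difference between the labels larger than its spread. It had 1062, 1017, 1269 and 1388 CPM in Erbb3f/f replicates 1 to 4 and 1251, 1253, 1046 and 1152 CPM in Erbb3d/d replicates 1 to 4, a log2 fold change of -0.01 (SE 0.13, edgeR adjusted p = 0.984). Mmp9, the gelatinase stored by neutrophils, varied more within each label than between them. It had 28.3, 25.4, 83.4 and 48.5 CPM in Erbb3f/f replicates 1 to 4 and 41.9, 19.4, 106 and 80.5 CPM in Erbb3d/d replicates 1 to 4, a coefficient of variation of 57.5% and 62.6% within the labels. The log2 fold change was 0.42 (SE 0.54, edgeR adjusted p = 0.80), from 0.03 without Erbb3d/d replicate 3 to 0.87 without Erbb3f/f replicate 3.

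Among the membrane-bound MMPs, Mmp14, Mmp15 and Mmp17 were higher at an unadjusted p under 0.05 and Mmp16 lower. Their summed level was 148 ± 8.29 CPM per kb under Erbb3f/f and 185 ± 23.3 under Erbb3d/d (SD, n = 4), with no overlap of libraries. Mmp14, which carries most of that sum, had 543, 572, 653 and 678 CPM in Erbb3f/f replicates 1 to 4 and 844, 666, 761 and 989 CPM in Erbb3d/d replicates 1 to 4. Erbb3d/d replicate 2 fell between Erbb3f/f replicates 3 and 4, so the labels overlapped in 1 library (log2 fold change 0.41, SE 0.13, edgeR adjusted p = 0.314). Mmp15, another membrane-type MMP, had 52.8, 48.6, 43.2 and 52.9 CPM and then 51.3, 66.4, 80.4 and 77.8 CPM, with Erbb3d/d replicate 1 below Erbb3f/f replicates 1 and 4 (log2 fold change 0.48, SE 0.14, edgeR adjusted p = 0.293). Mmp15 was 0.19 on that scale when the mean of the epithelial markers was a covariate, and 0.61 with that of the smooth muscle markers.

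Mmp17, an MMP held by a lipid anchor, had 29.1, 22.9, 20.6 and 24.6 CPM in Erbb3f/f replicates 1 to 4 and 61.2, 31.3, 28.8 and 37.3 CPM in Erbb3d/d replicates 1 to 4. Erbb3d/d replicate 3 fell just below Erbb3f/f replicate 1, and replicate 1 of Erbb3d/d stood apart as the highest. The log2 fold change was 0.70 (SE 0.23, edgeR adjusted p = 0.317), and 0.42 without Erbb3d/d replicate 1. It was 0.08 with the smooth muscle markers as a covariate and 0.81 with the epithelial ones. Mmp16, a further membrane-type MMP, was lower and without overlap, with 45.6, 38.7, 29.5 and 30.6 CPM under Erbb3f/f and 26.0, 29.3, 19.4 and 15.8 CPM under Erbb3d/d. The log2 fold change of Mmp16 was -0.68 (SE 0.21, edgeR adjusted p = 0.305, exact permutation p = 0.0286). As a covariate, the epithelial markers gave -0.48 (SE 0.26) and the smooth muscle markers -0.93 (SE 0.28). The other members of the group, Mmp23, Mmp24 and Mmp25, had log2 fold changes of -0.12, 0.22 and -0.24, with edgeR adjusted p-values of 0.806, 0.627 and 0.871.

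Mmp11, the stromelysin that is activated by furin inside the cell, gave the smallest edgeR p-value of the set. It had 125, 91.4, 122 and 104 CPM in Erbb3f/f replicates 1 to 4 and 208, 187, 179 and 430 CPM in Erbb3d/d replicates 1 to 4. The 2 labels did not overlap, and Erbb3d/d replicate 4 was far above the other 3 of its label. The log2 fold change was 1.18 (SE 0.28, 2.27-fold) with an edgeR adjusted p of 0.251 and an exact permutation p of 0.0286, and it was 0.80 without Erbb3d/d replicate 4. With the epithelial markers as a covariate it was 0.86 (SE 0.37), and with the smooth muscle markers 1.04 (SE 0.44). Mmp11 shares 155 exonic bases with Chchd10 on the other strand, a gene that was at 5.11 ± 1.01 and 13.2 ± 6.34 CPM in Erbb3f/f and Erbb3d/d (SD, n = 4), a log2 fold change of 1.38 with an edgeR adjusted p of 0.236. Reads over the shared bases cannot be told apart, and both genes were higher. Mmp11 was at 110 ± 15.6 and 251 ± 120 CPM (SD, n = 4), far above Chchd10, and the 155 shared bases are part of its 2778 exonic bases. The part of Chchd10 reads in the Mmp11 counts was not tested. Mmp3, a broad-range stromelysin, was at 6.44 ± 1.80 and 7.59 ± 3.72 CPM (SD, n = 4), with an edgeR adjusted p of 0.825.

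Among the other secreted MMPs, Mmp19, a basement-membrane protease, was lower at an unadjusted p under 0.05. It had 160, 136, 153 and 173 CPM in Erbb3f/f replicates 1 to 4 and 145, 121, 132 and 131 CPM in Erbb3d/d replicates 1 to 4. Erbb3f/f replicate 2 lay below Erbb3d/d replicate 1, and the other libraries were separated by label (log2 fold change -0.24, SE 0.10, edgeR adjusted p = 0.392). As a covariate, the epithelial markers gave -0.26 (SE 0.13) and the smooth muscle markers -0.28 (SE 0.14). The gene lies 201 kb from Erbb3 on chromosome 10 and shares 1001 exonic bases with Tmem198b and Gm47093 on the other strand, where Tmem198b was at 113 ± 11.6 and 98.5 ± 10.3 CPM (SD, n = 4).

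Mmp7, the matrilysin made by epithelia, was low and uneven. It had 0.877, 1.26, 1.41 and 4.18 CPM in Erbb3f/f replicates 1 to 4 and 3.64, 1.52, 4.96 and 9.30 CPM in Erbb3d/d replicates 1 to 4. The log2 fold change was 1.36 (SE 0.60, edgeR adjusted p = 0.427) and rested on few reads (9 to 106 per library). It was 2.04 without Erbb3f/f replicate 4 and 0.84 without Erbb3d/d replicate 4. As a covariate, the epithelial markers gave 0.21 and the smooth muscle markers 1.62. The macrophage elastase Mmp12 was at 0.0974, 0.419, 2.51 and 0.113 CPM and then 1.57, 1.52, 2.44 and 1.75 CPM (edgeR adjusted p = 0.603), so Erbb3f/f replicate 3 alone reached the level of the other label. Its log2 fold change was 1.12 (SE 0.78), and 3.06 without that library. It was 2.51 with the epithelial markers as a covariate and 2.81 with the smooth muscle ones.

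**Figure D3:**
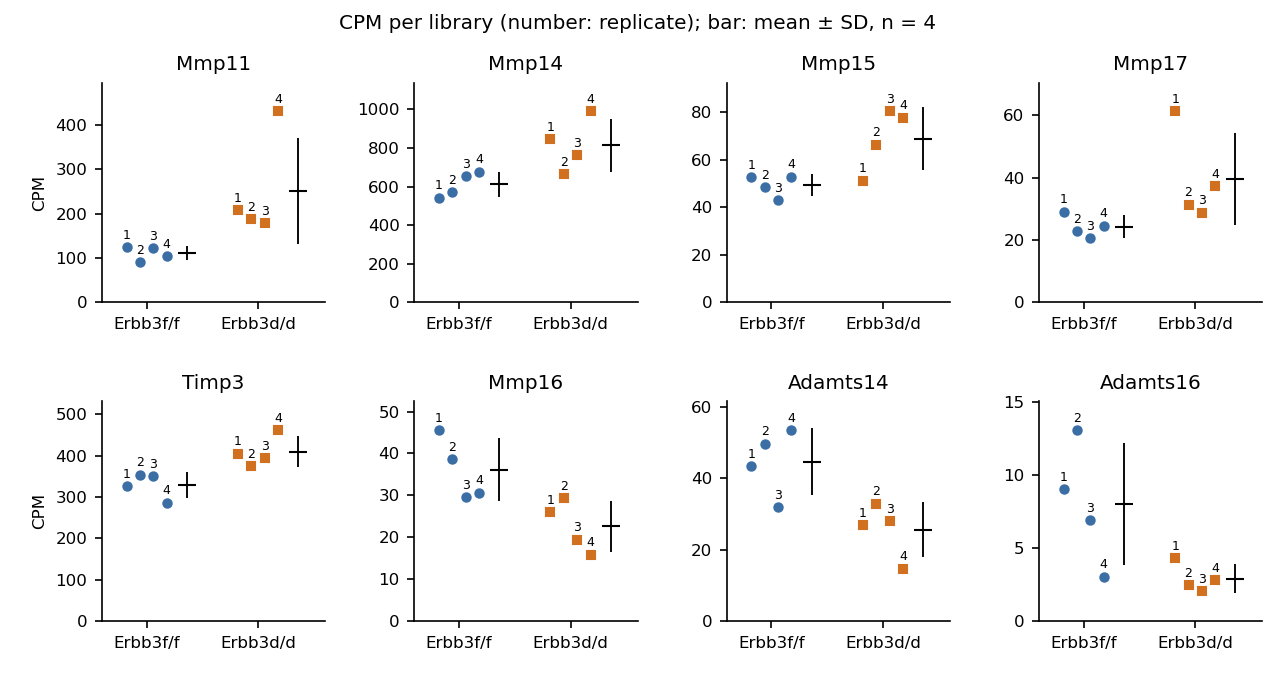
CPM of 8 members by library, numbered by replicate, with bars for the mean ± SD of 4 libraries, each axis starting at 0. Mmp11 and Timp3 are higher and Mmp16 lower in the libraries labelled Erbb3d/d without overlap, while 1 or more libraries overlap in Mmp14, Mmp15, Mmp17, Adamts14 and Adamts16.

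Of the 17 tested ADAMTS proteases, 4 (23.5%) had an unadjusted p under 0.05, all lower, where 4.97% of all tested genes were lower. Among the ADAMTS proteases that cut proteoglycans such as versican and aggrecan, Adamts1 had the highest level of the class. It had 370, 254, 474 and 352 CPM in Erbb3f/f replicates 1 to 4 and 643, 350, 381 and 337 CPM in Erbb3d/d replicates 1 to 4, with Erbb3d/d replicate 1 above the rest (log2 fold change 0.24, SE 0.24, edgeR adjusted p = 0.740). Without that library the log2 fold change was -0.02, and without Erbb3f/f replicate 3 it was 0.40. It was 0.60 with the epithelial markers as a covariate and 0.10 with the smooth muscle ones. Adamts4, Adamts5, Adamts15 and Adamts9 had log2 fold changes of 0.28, -0.12, -0.05 and 0.18 (edgeR adjusted p-values 0.719, 0.77, 0.88 and 0.696). Adamts4 was at 0.01 without Erbb3d/d replicate 1, and Adamts5 at -0.03 without Erbb3d/d replicate 3. Adamts20, a versican-cleaving relative of Adamts9, was lower at an unadjusted p under 0.05. It had 5.45, 3.46, 4.48 and 3.96 CPM and then 2.26, 3.50, 2.21 and 0.526 CPM, with Erbb3d/d replicate 2 inside the other range (log2 fold change -1.05, SE 0.46, edgeR adjusted p = 0.418). With the epithelial markers as a covariate it was -0.58, and with the smooth muscle markers -0.9.

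Of the enzymes that remove the amino-terminal propeptide of fibrillar procollagens, Adamts14 was lower at an unadjusted p under 0.05, and Adamts2 and Adamts3 had log2 fold changes near 0. Adamts14 had 43.4, 49.7, 31.9 and 53.5 CPM in Erbb3f/f replicates 1 to 4 and 26.8, 32.9, 27.9 and 14.7 CPM in Erbb3d/d replicates 1 to 4. Erbb3d/d replicate 2 was just above Erbb3f/f replicate 3, and replicate 4 of Erbb3d/d was the lowest. The log2 fold change was -0.80 (SE 0.24, edgeR adjusted p = 0.296), against 0.05 for Adamts2 and -0.04 for Adamts3 (edgeR adjusted p-values 0.906 and 0.941). Adamts14 was at -0.75 (SE 0.32) with the epithelial markers as a covariate and at -0.82 (SE 0.35) with the smooth muscle ones. The summed level of the 3 was 18.8 ± 2.10 CPM per kb under Erbb3f/f and 15.3 ± 1.18 under Erbb3d/d (SD, n = 4), and their libraries did not overlap.

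All 7 tested members of the remaining ADAMTS group (Adamts6, Adamts7, Adamts10, Adamts12, Adamts16, Adamts17 and Adamts19) had a log2 fold change below 0, with a median of -0.31. At an unadjusted p under 0.05, 2 of them (28.6%) were lower. Of all tested genes 48.0% were above 0 (median -0.01), and 4.97% were lower at that p. Adamts16, a member whose substrates are less well known, had 9.06, 13.1, 6.91 and 3.05 CPM in Erbb3f/f replicates 1 to 4 and 4.32, 2.45, 2.05 and 2.81 CPM in Erbb3d/d replicates 1 to 4. Erbb3f/f replicate 4 lay below Erbb3d/d replicate 1, and the other libraries were separated by label. Its log2 fold change was -1.47 (SE 0.42, edgeR adjusted p = 0.284). It was -2.25 with the smooth muscle markers as a covariate and -1.22 with the epithelial ones. Adamts17, which acts on fibrillin microfibrils, had 5.55, 4.40, 7.62 and 3.17 CPM and then 2.95, 4.43, 2.29 and 1.32 CPM. Its log2 fold change was -0.94 (SE 0.41, edgeR adjusted p = 0.413). As a covariate, the epithelial markers gave -0.16 and the smooth muscle markers -0.68. Adamts7 and Adamts12, which cut cartilage oligomeric matrix protein, had log2 fold changes of -0.31 and -0.27 (edgeR adjusted p-values 0.600 and 0.528), and Adamts10 -0.07. Without Erbb3d/d replicate 2, Adamts7 was at -0.58 (edgeR adjusted p = 0.0566) and Adamts12 at -0.41 (edgeR adjusted p = 0.159). Without Erbb3d/d replicate 4 they were at -0.19 and -0.20 (edgeR adjusted p-values 0.897 and 0.854). The epithelial markers as a covariate gave -0.02 and -0.08, and the smooth muscle markers -0.37 and -0.11.

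Adamts19 had the widest spread of the ADAMTS members in the libraries labelled Erbb3d/d among those with a mean over 10 CPM. It had 47.9, 38.0, 34.5 and 34.4 CPM in Erbb3f/f replicates 1 to 4 and 29.2, 40.1, 8.19 and 19.3 CPM in Erbb3d/d replicates 1 to 4, a coefficient of variation of 16.5% and 56.4%. Erbb3d/d replicates 3 and 4 were the low libraries, and the log2 fold change of -0.69 (SE 0.39) had an edgeR adjusted p of 0.528.

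Proteases were set against inhibitors by summing CPM per kb within each class. The MMP sum was 604 ± 70.6 under Erbb3f/f and 690 ± 73.5 under Erbb3d/d, the ADAMTS sum 169 ± 18.4 and 175 ± 39.8, and the TIMP sum 345 ± 35.6 and 413 ± 75.6 (SD, n = 4). MMP and TIMP sums were thus both higher on average, and each overlapped between the labels. The log2 ratio of MMP to TIMP was 0.78, 0.74, 0.71 and 0.99 for replicates 1 to 4 of Erbb3f/f and 0.69, 0.98, 0.70 and 0.65 for those of Erbb3d/d, a difference of means of -0.05. Without Mmp2 that difference was 0.17. The log2 ratio of ADAMTS to TIMP was -0.91, -1.13, -1.07 and -1.01 and then -0.91, -0.95, -1.38 and -1.75, a difference of -0.22 that came from Erbb3d/d replicates 3 and 4 and was -0.05 without replicate 4. No test was made of these sums. Timp3, given above as an inhibitor of ADAMTS proteases, made up 11.8% ± 1.54 and 12.3% ± 1.32 of the TIMP sum (SD, n = 4). The ADAMTS to TIMP ratio therefore mostly sets ADAMTS RNA beside Timp2.

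Mmp11 made up a larger share of the MMP sum in the libraries labelled Erbb3d/d. Its share of the MMP level was 6.63% ± 1.04 under Erbb3f/f and 12.7% ± 4.59 under Erbb3d/d (SD, n = 4), from 5.53% to 7.99% and from 10.3% to 19.6%, without overlap. Mmp2 made up 58.0% ± 1.99 and 50.9% ± 5.99 of the MMP level, and Mmp14 17.0% ± 0.823 and 19.7% ± 1.65. Timp2 made up 87.0% ± 1.46 and 86.8% ± 1.46 of the TIMP level. The ratio of Mmp14 to Timp2, the pair that takes part in pro-Mmp2 activation, was 0.343 ± 0.0294 and 0.382 ± 0.0150, and that of Mmp2 to Timp2 1.17 ± 0.131 and 1.0 ± 0.241.

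**Figure D4:**
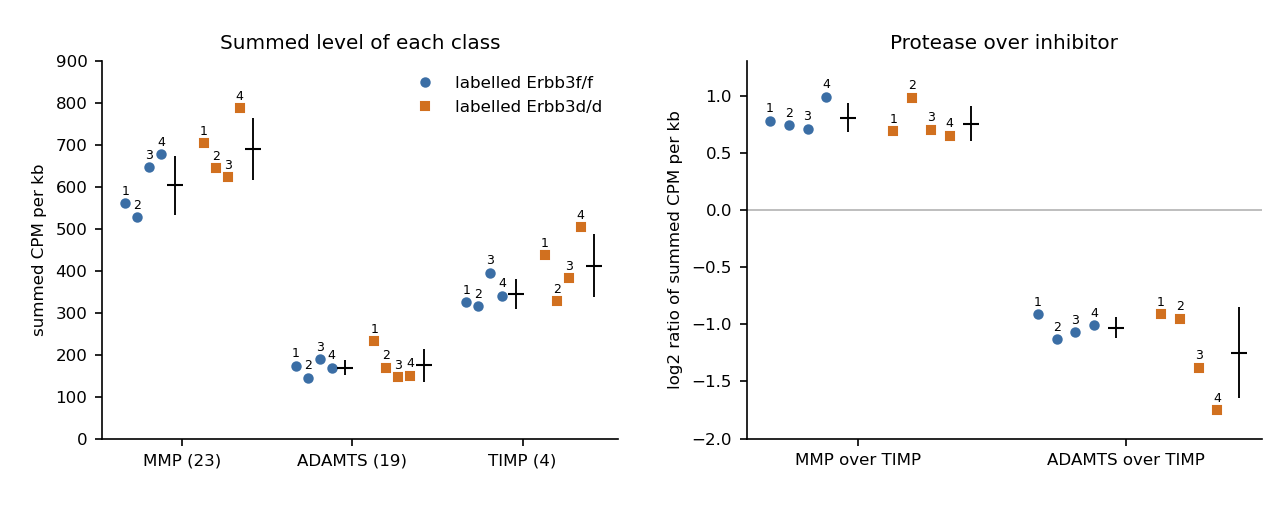
Left, summed CPM per kb of the 23 MMPs, 19 ADAMTS proteases and 4 TIMPs by library, with the axis starting at 0; right, log2 ratio of protease to TIMP sums, each numbered by replicate, with bars for the mean ± SD of 4 libraries. The MMP to TIMP ratios of the 2 labels overlap at a mean of 0.81 and 0.75, and Erbb3d/d replicates 3 and 4 have the lowest ADAMTS to TIMP ratios, -1.38 and -1.75.

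Genes that act on these proteases were read from a list of 24 activators, inhibitors and receptors, of which 22 were tested. None passed an adjusted p of 0.05 in edgeR, and 18 had a log2 fold change above 0 and 4 below (median 0.21). At an unadjusted p under 0.05, 6 were higher and 1 lower. Of all tested genes 48.0% were above 0 (median -0.01), 6.64% were higher and 4.97% lower at that p, and 5.04% had no overlap. Plau, the urokinase that makes plasmin, an activator of pro-MMPs, was at 19.3 ± 3.06 and 49.7 ± 17.6 CPM (SD, n = 4) without overlap, a log2 fold change of 1.37 (SE 0.25, edgeR adjusted p = 0.133). Plat, the other plasminogen activator, was at 195 ± 65.3 and 412 ± 147 CPM (SD, n = 4), with an edgeR adjusted p of 0.285. Pcsk6 and Pcsk5, proprotein convertases of the furin family, had log2 fold changes of 1.14 and -1.02 (edgeR adjusted p-values 0.237 and 0.377), while Furin was at 0.01. Thbs1, which binds matrix and proteases, was at 999 ± 179 and 1418 ± 203 CPM (SD, n = 4) without overlap, with an edgeR adjusted p of 0.294. Reck, a membrane inhibitor of several MMPs, was at -0.40 (edgeR adjusted p = 0.573).

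Among 16 ADAM relatives and ADAMTS-like proteins, all tested, 10 were above 0 and 6 below (median 0.08). At an unadjusted p under 0.05, 2 were higher (Adam23 and Adam33) and 1 lower (Adamtsl4). The shares of all tested genes were 48.0% above 0, 6.64% higher and 4.97% lower at that p, and 5.04% without overlap. Of 20 known substrates of these proteases, 17 were tested, 5 were above 0 and 12 below (median -0.13), and at an unadjusted p under 0.05 0 were higher and 4 lower. The 4 were the small proteoglycan Bgn (682 ± 29.5 and 489 ± 59.6 CPM, SD, n = 4, without overlap), the large proteoglycan Vcan (1201 ± 231 and 828 ± 304 CPM), the basement membrane protein Nid1 (2255 ± 163 and 1630 ± 493 CPM) and the microfibril protein Fbn1 (236 ± 14.8 and 182 ± 42.4 CPM). Their edgeR adjusted p-values were 0.195, 0.427, 0.382 and 0.383. The collagens Col1a1, Col1a2 and Col3a1 had log2 fold changes of -0.04, 0.08 and -0.20.

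Markers of other cell types were read beside the members. For scale, 48.0% of all tested genes had a log2 fold change above 0 (median -0.01). At an unadjusted p under 0.05 there were 11.6% of them, 6.64% higher and 4.97% lower. Of 18 epithelial markers, 15 had a log2 fold change above 0 and 10 an unadjusted p under 0.05, all higher in the libraries labelled Erbb3d/d (median 0.57). Of 12 smooth muscle markers, 11 were above 0 and 11 had an unadjusted p under 0.05 (median 1.0). Of the 16 stromal markers, 6 were above 0 and 5 were lower at an unadjusted p under 0.05 (median -0.20). Endothelial and immune markers had medians of 0.13 and -0.10, over 13 and 14 tested genes. Of these, 1 and 2 genes (7.69% and 14.3%) were at an unadjusted p under 0.05, near the share over all genes. Endothelial markers summed to 525 to 860 CPM under Erbb3f/f and 546 to 959 CPM under Erbb3d/d, and immune markers to 1314 to 3243 and 1914 to 2365 CPM. None of these lists had a gene past an adjusted p of 0.05 in edgeR, and their part in the differences of the members was not tested.

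Set beside the members, Mmp7 was highest in Erbb3d/d replicate 4, the library with the highest mean of the epithelial markers (6.73 on the log2(CPM + 0.5) scale), and Mmp17 in Erbb3d/d replicate 1, the library with the highest mean of the smooth muscle markers (8.30). The neutrophil marker Cxcr2 had 6.14, 3.04, 47.6 and 10.9 CPM in Erbb3f/f replicates 1 to 4 and 3.34, 4.90, 28.1 and 27.3 CPM in Erbb3d/d replicates 1 to 4, and the 3 libraries with the most Cxcr2 were also the 3 with the most Mmp9. S100a9, another neutrophil marker, had 4.09, 1.99, 29.9 and 9.27 CPM and then 3.83, 4.32, 16.0 and 17.3 CPM, highest in the same 3 libraries. Mmp8, with at most 19 reads in any library, was also highest in those 3. Mmp25 had another order, with 8.28, 12.8, 13.8 and 23.1 CPM and then 8.45, 4.67, 18.7 and 16.9 CPM, highest in Erbb3f/f replicate 4. The part of neutrophil RNA in these levels was not tested.

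**Figure D5:**
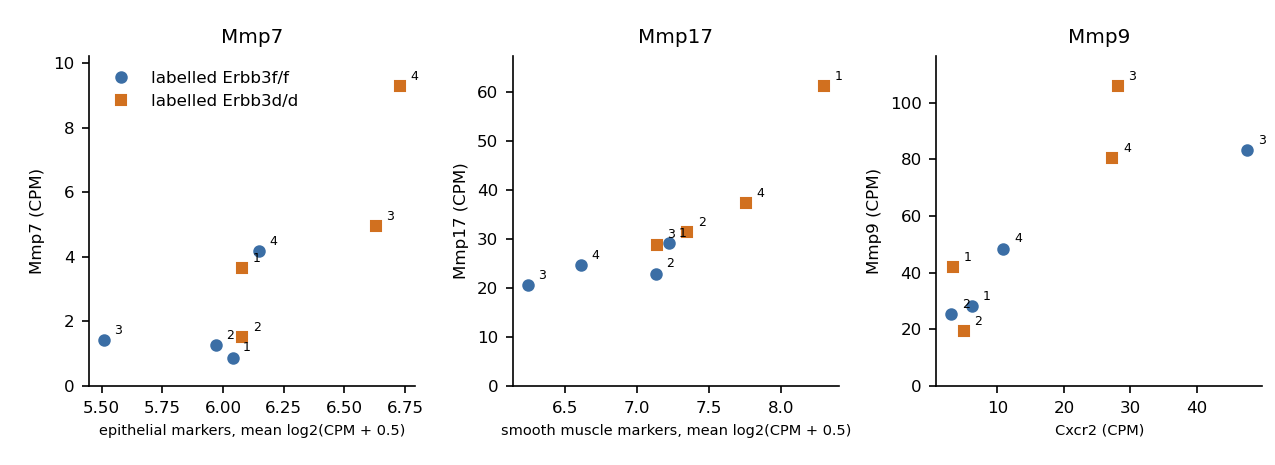
CPM of Mmp7, Mmp17 and Mmp9 in each library (vertical axes, from 0) against the mean log2(CPM + 0.5) of the epithelial markers, that of the smooth muscle markers and the CPM of Cxcr2, numbered by replicate. Erbb3d/d replicate 4 is highest for Mmp7 (9.30) and Erbb3d/d replicate 1 for Mmp17 (61.2), each beside the highest marker mean.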

How the data were processed

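RNA of 8 libraries of mouse uterine stromal cells was measured, 4 labelled Erbb3f/f and 4 labelled Erbb3d/d by their titles, which also give the replicate numbers. Total RNA was extracted with TRIzol, and poly(A) RNA was sequenced in non-directional libraries, per the labels' protocols. The authors deposited 1 table of raw counts per library, for 23420 symbols, with no normalization. HISAT2, SAMtools, HTSeq and StringTie and the builds mm10 and GRCm38 are named in the submitters' processing notes, with no order or version; the annotation and counting options are not given in the sources used here. A count is called a read. Of the lines of each file, 5 name no gene (70.87% to 73.02% of entries) and were left out of library sizes and tests.

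Counts were analysed with edgeR 4.0.16, limma 3.58.1 and R 4.3.3: filterByExpr on genotype (14598 genes kept), TMM, glmQLFit with robust estimation and glmQLFTest, Benjamini-Hochberg adjustment over all tested genes, threshold 0.05. The test was first run on simulated data. CPM use the TMM-scaled library size. SE is the log2 fold change over the square root of F. For single values an exact permutation test, two-sided, used all 70 assignments of libraries, on log2(CPM + 0.5), with a smallest p of 0.0286. Marker means per library are on the same scale. Levels between genes are CPM per kb of merged exon of GENCODE vM21, in which all 46 members matched 1 gene. Promoter sequences and starts came from RefSeq on GRCm38.p6. Of several starts the most upstream was used. Python 3.11.15, pandas 2.3.3 and matplotlib 3.10.9 were used.

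The members, families, lists and markers were chosen with earlier results of these data known. Named genes were the TIMPs, members with an adjusted or unadjusted p under 0.05 or no overlap, the 8 MMPs and 8 ADAMTS proteases of highest mean CPM, and Mmp7, Mmp8, Mmp9, Mmp12 and Mmp25. Members named outside this rule complete their family. Alternatives were DESeq2 1.42.0, other scaling and filters, a replicate block, marker covariates (prior count 2) and leaving out each library. The read-out of members at an unadjusted p under 0.05 was chosen after seeing the data. Depth of 8578575 to 12854367 reads per library limits low members, and floors cover counting error only.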

Additional observations from a re-analysis of the deposited data

Results flagged for a closer look

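In 64 groups of 4 libraries of 1 label, 6 values stood apart from the other 3 of their group. The nominal rate by chance is about 1 in 20 groups. The groups include members near the floor and ratios built from the same genes, so that rate may not hold here. Adamts1 was at 643 CPM in Erbb3d/d replicate 1, where the nearest of its label was 381. Mmp11 was at 430 CPM in Erbb3d/d replicate 4, against 208 for the nearest. Mmp12 was at 2.51 CPM in Erbb3f/f replicate 3 (nearest 0.419) and Mmp7 at 4.18 CPM in Erbb3f/f replicate 4 (nearest 1.41). Timp4 was at 0.292 CPM in Erbb3f/f replicate 1, where the others were at 0, which rests on 3 reads. Beside others at 0, any value would have stood apart. The log2 ratio of the MMP to the TIMP sum was 0.98 in Erbb3d/d replicate 2 (nearest 0.70).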

How the results depend on the processing

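edgeR called 0 genes and 0 members at an adjusted p under 0.05, whereas DESeq2 called 212 genes higher and 58 lower, with 1 member each way. With the replicate block, edgeR called 39 genes higher and 13 lower. Under it 7 members were higher and 8 lower at an unadjusted p under 0.05, the 12 without the block among them. Mmp12 (log2 fold change 1.73, on 1 to 32 reads per library) and Adamts7 (-0.37) were among those added. Correlations of same-numbered libraries were 0.221, 0.159, 0.096 and 0.145, so 1 pair missed the 0.1 asked of every pair, and 3 of 4 numbers matched best with their own. This is a hint of pairing from the data, and no label states one. When each library was left out, edgeR called 0 to 142 genes higher and 0 to 116 lower, with most calls without Erbb3d/d replicate 2 and 0 members in any case. Members at an unadjusted p under 0.05 were 5 to 7 higher and 3 to 8 lower over these runs, with 3 lower without the third Erbb3f/f library, or without the third or the fourth of Erbb3d/d. With the epithelial covariate they were 3 higher and 1 lower, and with the smooth muscle covariate 3 higher and 4 lower (2 and 3 of them shared). The MMP to TIMP difference was 0.17 without Mmp2.

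Of 405 alternative values for 27 tested named members, 386 kept direction and side of the threshold, 2 passed it and 17 changed sign. None of those 17 was of a member at an unadjusted p under 0.05, a set chosen in these same libraries. Adamts4 was -0.02 and Adamts15 0.02 with the smooth muscle covariate, Mmp23 0.12 with the epithelial one, Mmp25 0.29 with the smooth muscle one, and Mmp2 0.08 and 0.07 with the 2 covariates. Leaving out libraries, Adamts1 ran from -0.02 to 0.40, Adamts10 from -0.18 to 0.06, Adamts15 from -0.09 to 0.01, Adamts2 from -0.03 to 0.13, Mmp2 from -0.07 to 0.08 and Mmp25 from -0.52 to 0.08. The cause of these changes was not tested.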

Other observations

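Adamts8 differed more between replicates than between labels. It had 6.43, 5.86, 1.81 and 1.92 CPM in Erbb3f/f replicates 1 to 4 and 3.64, 5.72, 1.5 and 1.75 CPM in Erbb3d/d replicates 1 to 4, so replicates 1 and 2 were high under both labels. The mean of the endothelial markers on the log2(CPM + 0.5) scale was 5.26, 5.22, 4.53 and 4.30 for replicates 1 to 4 of Erbb3f/f and 5.29, 5.40, 4.64 and 4.97 for those of Erbb3d/d, also highest in replicates 1 and 2 of both labels. The part of endothelial RNA in the Adamts8 level was not tested. Adamts8 was named after its values were seen, and the replicate numbers are not known to mark a shared batch.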
